A study of Mus musculus with 9 samples.

Results

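The cytosolic ribosomal protein genes were followed through the 3 groups of the series as the 79 gene symbols beginning with Rpl or Rps and a digit, together with Rplp0, Rplp1, Rplp2 and Rpsa, without pseudogenes, S6 kinase genes and 2 look-alike names, that the table of PA/OA against control lists among its 6213 gene symbols. Of these, 47 encode proteins of the large and 32 proteins of the small subunit. The table of Ang(1-7) against PA/OA lists the same 79 among 10259 symbols, and that of Ang(1-7) against control lists 78 among 6141, without Rpl35a. All listed members passed the filter on low counts. The symbols were chosen by name and not by their values, but with earlier results of these data known.

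The cells were AML12, a line of mouse hepatocytes. One group had 100 nM Ang(1-7), which belongs to the renin-angiotensin peptides, added 30 min ahead of 24 h with 0.2 mM PA and 0.4 mM OA, abbreviations taken to mean palmitic and oleic acid. A second group, PA/OA, had the same doses and time without Ang(1-7), and the control group was untreated. Each group had 3 samples, and the labels do not call them independent cultures. A p-value here reflects the variation among the 3 samples of a group, and this may be technical. A group with the carrier alone is not among the 3, so effects of a carrier and of the fatty acids cannot be told apart.

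Ribosomal proteins assemble with ribosomal RNA into the large subunit, which forms peptide bonds, and the small subunit, which reads the mRNA. Because most of them are needed in equal numbers, their genes are transcribed at high and similar levels, and a hepatocyte, which secretes much protein, depends on a steady supply of ribosomes. Most of their mRNAs begin with a C followed by a run of pyrimidines, the 5′ terminal oligopyrimidine (TOP) tract, through which mTORC1 and the binding protein Larp1 set how much of the mRNA is stored or translated. A count of mRNA therefore does not give the amount of protein made.

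To show the sequence around the annotated start, 80 bases of RefSeq promoter sequence (GRCm38.p6), from 30 bases before to 50 after the annotated transcript start, are printed for 4 members that fell in PA/OA and 3 highly counted members that did not pass the test. Capitals mark CTTTCC and CTCTTT, 2 pyrimidine-rich motifs that were picked after the sequences had been seen and that can overlap each other. Only matches on the gene's own strand are marked. Rpl41 was picked because it holds neither motif in this window, and the other printed members because they hold a motif. The printed set therefore does not show how often the motifs occur.
Rpl13a, chr7:45128696-45128775, minus strand: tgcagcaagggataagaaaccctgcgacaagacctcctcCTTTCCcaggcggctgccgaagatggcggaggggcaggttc
Rpl35, chr2:39005082-39005161, minus strand: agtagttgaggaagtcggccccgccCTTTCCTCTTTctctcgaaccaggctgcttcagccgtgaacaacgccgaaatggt
Rpl37, chr15:5116583-5116662, plus strand: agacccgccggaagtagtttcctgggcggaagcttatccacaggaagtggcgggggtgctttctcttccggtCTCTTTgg
Rpl41, chr10:128549119-128549198, minus strand: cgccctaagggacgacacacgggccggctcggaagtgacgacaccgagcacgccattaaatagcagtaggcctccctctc
Rpl4, chr9:64173357-64173436, plus strand: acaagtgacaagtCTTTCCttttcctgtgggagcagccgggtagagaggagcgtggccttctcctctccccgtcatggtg
Rps6, chr4:86857318-86857397, minus strand: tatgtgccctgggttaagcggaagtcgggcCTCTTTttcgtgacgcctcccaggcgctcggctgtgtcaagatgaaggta
Rps23, chr13:90923092-90923171, plus strand: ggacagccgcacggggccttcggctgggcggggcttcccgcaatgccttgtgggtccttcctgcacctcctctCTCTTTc

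The first 4 are Rpl13a, Rpl35, Rpl37 and Rpl41, which were lower in PA/OA, and the last 3 are Rpl4, Rps6 and Rps23, which were not called. A RefSeq entry was matched for 59 of the 79 members. In this window at least 1 of the motifs lay on the gene's strand in 29 of the 59 (49.2%), against 7.32% of 27025 genes, and on either strand in 31 (52.5%), against 14.01%. The motifs had been picked with sequences in view, so the higher share in members is not a test. Among members that fell in PA/OA a motif lay on the gene's strand in 6 of 12, and among the others in 23 of 47. The marked letters begin at the annotated start in Rps6, lie before it in Rpl4, across it in Rpl35 and after it in Rpl13a, Rpl37 and Rps23, so they do not show a shared first base. A match is a description of the letters and not a shown site, and the window printed for Rpl41 holds neither motif although it ends in a run of pyrimidines.

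Total RNA was sequenced, and levels are given as CPM, a gene's count scaled to a common library size, for members with trimmed mean factors and for marker lists with the listed totals. The libraries held 24588312 to 28552995 counts over the listed transcripts of the tables with controls. Of 18 hepatocyte markers, 10 were listed in the table of Ang(1-7) against PA/OA, led by the transferrin gene Trf at 597 to 840 CPM and Apob at 169 to 202 CPM, whereas albumin (Alb) was at 3.13 to 19.2 CPM. The bile duct keratins Krt19 and Krt7 were at 339 to 683 and 762 to 1006 CPM. Libraries Ang(1-7) 2 and 3 held markers of nervous tissue and blood. Of 26 markers of neurons, astrocytes and oligodendrocytes 17 were listed, all of them above 0 in Ang(1-7) 2 and 3, with sums of 256 and 219 CPM, and 6 or 7 of them above 0 in Ang(1-7) 1 and the PA/OA libraries, with sums of 129 to 140 CPM. The neurofilament genes Nefl, Nefm and Nefh were at 0 in those 4 libraries, as were Stmn2 and Tubb3 among others. Such genes could be listed only through Ang(1-7) 2 and 3, so their being above 0 there follows from the listing. The sums in those 4 libraries were mostly the listed marker Mbp. It was at 109 to 138 CPM over all 6 libraries and lowest in Ang(1-7) 2. Both listed hemoglobin genes were counted in Ang(1-7) 2 and 3, where they summed to 4.01 and 2.44 CPM, against 0 to 0.159 CPM in the other 4. Hbb-bs was at 0 in the other 4 and so was listed only through Ang(1-7) 2 and 3. The 4 endothelial markers were not listed, the 3 listed of 6 macrophage markers summed to 670 to 811 CPM, and the 4 listed of 7 stellate or fibroblast markers to 16.7 and 12.6 CPM in Ang(1-7) 2 and 3, against 5.98 to 8.91 CPM. Whether such RNA has a part in the results with Ang(1-7) was not tested. Ang(1-7) 2 also stood apart in the ribosomal protein genes themselves, so results with that group are given with and without it.

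Ribosomal protein genes took a smaller share of all counts in both groups with fatty acids than in controls. Over the 94 member transcripts listed in all 3 tables, they held 12.7%, 13.1% and 12.1% of the shared counts in Ang(1-7) 1 to 3, against 12.7%, 12.4% and 12.6% in PA/OA 1 to 3 and 13.8%, 13.3% and 13.8% across the 3 controls. The groups averaged 12.6% ± 0.519 with Ang(1-7), 12.6% ± 0.120 with PA/OA and 13.6% ± 0.252 in control (SD, n = 3 each). Each of the 6 libraries with fatty acids lay below each control, and no test was run on this sum. In bulk samples fewer cells of a type and less RNA per cell cannot be told apart, and a share falls as well when other mRNAs increase.

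Both subunits had a smaller mean share with fatty acids. Large subunit genes held 7.67% ± 0.197 of the counts in Ang(1-7), 7.71% ± 0.0815 in PA/OA and 8.38% ± 0.178 in control, and small subunit genes 4.96% ± 0.403 in Ang(1-7), 4.84% ± 0.0451 in PA/OA and 5.25% ± 0.0897 in control. In Ang(1-7) 2 the small subunit share was 5.40%, above each control, which had 5.16% to 5.34%, while Ang(1-7) 1 and 3 had 4.86% and 4.61%. The ratio of large over small subunit counts was 1.604, 1.59 and 1.58 in PA/OA and 1.62, 1.59 and 1.58 in control, so that these groups overlapped. It was 1.61 and 1.62 in Ang(1-7) 1 and 3 and 1.42 in Ang(1-7) 2, the lowest of the 9 libraries.

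**Figure D1:**
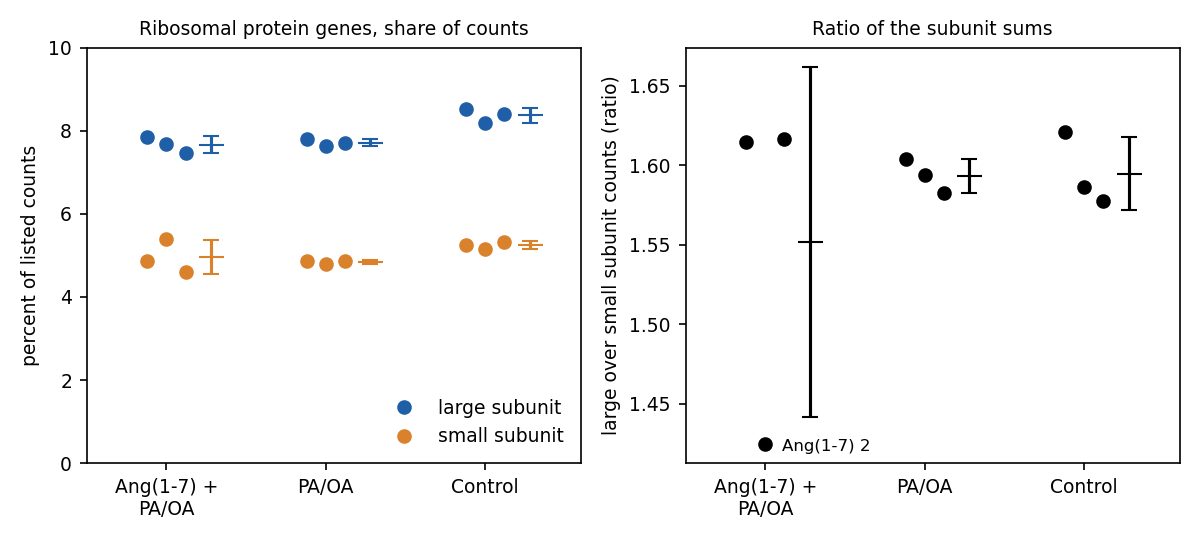
Left, the percent of listed counts held by large (blue) and small (orange) subunit genes in each library; right, the ratio of the sums. Points are libraries, bars the mean ± SD of 3; the PA/OA libraries lie below the controls for both subunits, and Ang(1-7) 2 has a ratio of 1.42.

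Untreated cells served to ask what the fatty acid mixture did to these mRNAs. In PA/OA 19 of the 79 genes fell, 12 of the large and 7 of the small subunit, none rose, and 60 did not pass the test. Over all genes 2.24% were called lower, 2.82% higher and 5.05% in either direction (edgeR quasi-likelihood test, Benjamini-Hochberg adjusted p under 0.05 over 6213 genes). The changes were small. The median log2 change was -0.15 in the large and -0.15 in the small subunit, a median change of -9.67% over all members, and the median over all genes was 0.01. The log2 change was below 0 for 75 of the 79. DESeq2 called 21 members lower, against 4.17% of all genes.

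More members shared the direction than passed the test. At an unadjusted p under 0.05, 41 members were lower and 0 higher, against 8.92% and 10.5% of all genes. For 41 members all 3 PA/OA libraries lay below all 3 controls, and for 0 above, against 11.6% and 12.2% of all genes. Of the 45 members with a mean of at least 500 CPM, all 45 had a log2 change below 0, from -0.45 to -0.02, and 16 were called. Of the 34 below that level 30 were below 0 and 3 were called, with a median standard error of 0.14 against 0.06 in the higher group. For the 322 other genes with a mean of at least 500 CPM the median also lay below control. Their median log2 ratios to the control mean were -0.04, -0.10 and -0.04 in PA/OA 1 to 3, with an SD across genes of 0.253 to 0.272. The members of that level had -0.12, -0.21 and -0.15. Sums of marker lists differed in the same comparison. The 3 listed of 4 bile duct markers summed to 1560 to 1707 CPM in PA/OA and 1989 to 2133 CPM in control, the 7 listed of 18 hepatocyte markers to 832 to 935 CPM in PA/OA and 589 to 677 CPM in control, and the 3 listed of 6 macrophage markers, mostly Cd14, to 674 to 816 CPM in PA/OA and 587 to 626 CPM in control. Their part in the result was not tested.

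**Figure D2:**
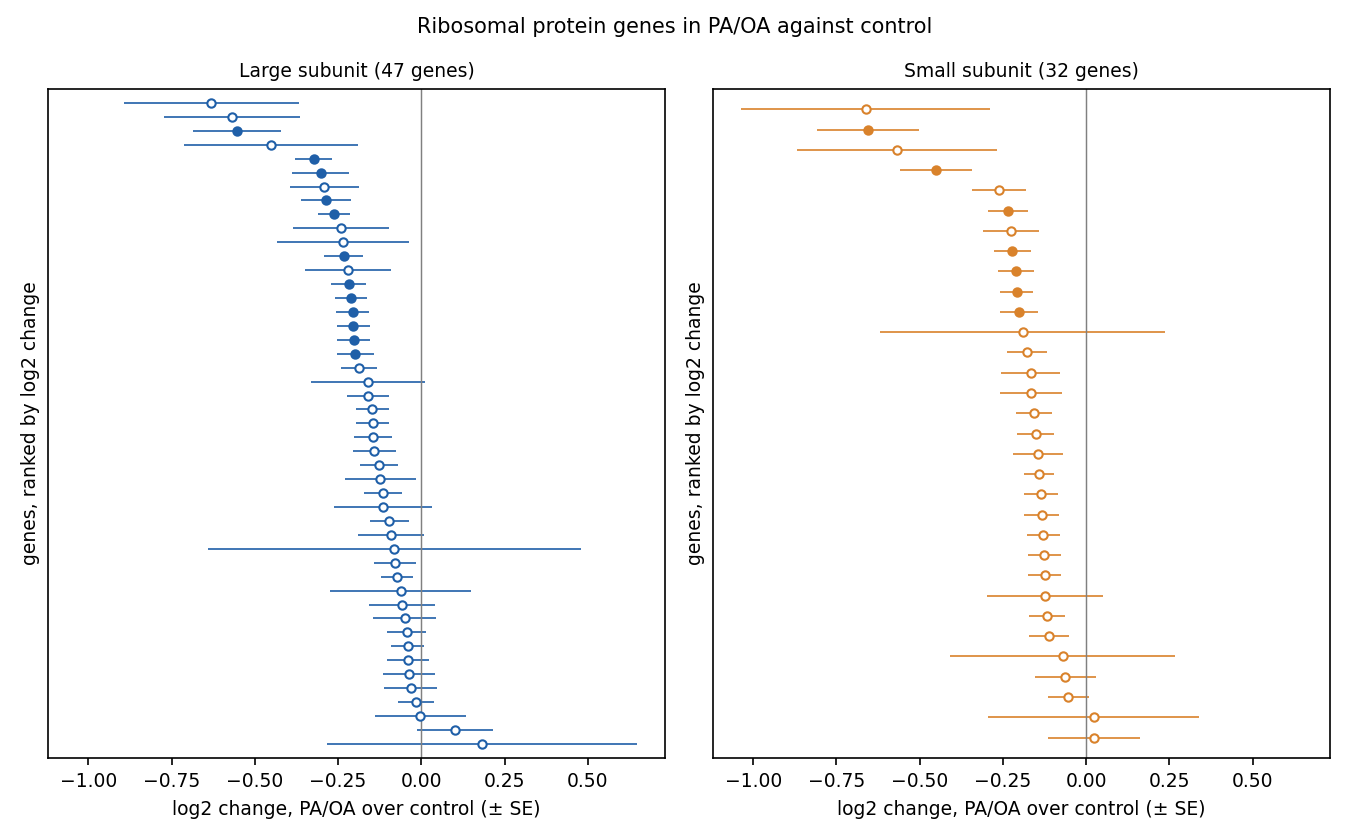
Log2 change of each ribosomal protein gene in PA/OA over control, with its standard error, for the 47 large (left) and 32 small subunit genes (right), ranked from the lowest change at the top. Filled points are the 19 genes with an adjusted p under 0.05; 75 of 79 points lie left of 0.

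In the large subunit Rpl41, the smallest ribosomal protein, had the lowest p. It measured 4141, 3847 and 3898 CPM in the PA/OA libraries and 5227, 4509.5 and 5129 CPM in the control libraries. The groups did not overlap, and the log2 change was -0.32 ± 0.06, adjusted p = 0.00157 (edgeR). Rpl8, which reaches to the centre where peptide bonds form, had 5293, 4979 and 4876 CPM in the PA/OA libraries and 6263, 5857 and 6063 CPM in the control libraries. Again each PA/OA library lay below each control (-0.26 ± 0.05, adjusted p = 0.00251). Rpl13 had 2401, 2381 and 2358 CPM in the PA/OA libraries and 2747, 2714 and 2808 CPM in the control libraries (-0.21 ± 0.05, adjusted p = 0.0152). Its groups were narrow and apart, as were those of Rpl27a, with 2479, 2409.8 and 2403 CPM in the PA/OA libraries and 2813, 2746 and 2853 CPM in the control libraries (-0.21 ± 0.05, adjusted p = 0.0176).

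Rpl30, which also binds the selenocysteine element of mRNAs, showed the largest called change of the large subunit (-0.55 ± 0.13, adjusted p = 0.0176). This was at a low level, with 45.7, 38.6 and 38.6 CPM in the PA/OA libraries and 63.4, 61.6 and 55.5 CPM in the control libraries. Rpl14 had 3288, 3335 and 3550.0 CPM in the PA/OA libraries and 3966, 3815 and 3935 CPM in the control libraries, groups that did not overlap (-0.20 ± 0.05, adjusted p = 0.0186). The other large subunit genes called were Rpl13a, Rpl32, Rpl35, Rpl37, Rplp1 and Rpl18, with log2 changes between -0.30 and -0.20 and adjusted p of 0.0187 to 0.0449. Rpl37 was the one called gene whose groups overlapped, with 1629.9, 1430.1 and 1454 CPM in the PA/OA libraries and 2097, 1615 and 1793 CPM in the control libraries. PA/OA 1 was above control 2 there.

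Among small subunit genes Rps19, which is needed to mature the subunit and is mutated in Diamond-Blackfan anaemia in humans, had the lowest p. It measured 35.7, 39.1 and 32.9 CPM in the PA/OA libraries and 69.8, 49.1 and 50.6 CPM in the control libraries. All PA/OA libraries were lower, and control 1 was the highest library (-0.65 ± 0.15, adjusted p = 0.0163). Rps29, a small zinc-binding protein, had 620.4, 657 and 611 CPM in the PA/OA libraries and 1104, 699.6 and 778 CPM in the control libraries. Control 1 again stood highest (-0.45 ± 0.11, adjusted p = 0.0186). Rps3, which lines the channel where mRNA enters, had 3870.1, 3927 and 3996 CPM in the PA/OA libraries and 4656, 4278 and 4695 CPM in the control libraries, with controls above PA/OA throughout (-0.21 ± 0.05, adjusted p = 0.0168). Rps20 had 1558, 1672 and 1563 CPM in the PA/OA libraries and 1926, 1777 and 1889 CPM in the control libraries (-0.22 ± 0.06, adjusted p = 0.0227). Rps25, which the internal entry sites of some viral RNAs need, had 1496, 1359 and 1466 CPM in the PA/OA libraries and 1771, 1566 and 1746 CPM in the control libraries (-0.23 ± 0.06, adjusted p = 0.0288). Neither overlapped between groups. Rps7 was called as well (-0.20 ± 0.06, adjusted p = 0.0449).

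The calls rest on the spread within groups of 3. Rpl41 and Rpl8 stayed called whichever library was left out, with adjusted p of up to 0.0350 and 0.0403 (edgeR). The other 17 lost the call without at least 1 library, Rps19 and Rps29 without control 1 or PA/OA 3 among them. Leaving out PA/OA 1, 2 or 3 gave 28, 8 and 4 called members, when 3.17%, 0.95% and 0.644% of all genes were called lower. Leaving out control 1, 2 or 3 gave 2, 17 and 6, when 0.499%, 1.67% and 1.24% of all genes were. The median over members stayed between -0.19 and -0.13.

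Scaling and the choice of libraries in the fit also moved the count. With all 9 libraries in 1 fit, where the spread includes that of Ang(1-7) 2, 0 members were called, when 33 genes in all and 0.0332% lower ones were, and the median over members was -0.15. With library totals in place of trimmed mean scaling 12 members were called, when 1.45% of all genes were called lower, with 90 genes lower and 238 higher in all, against 139 lower and 175 higher with the scaling. Ribosomal protein mRNAs are short, with a median of 775 bases against 2609 for all genes. Other genes among the shortest 25% had a median log2 change of -0.10 (n = 1450) and those in the longest 0.12, while the 72 members among the shortest had -0.15. With a correction for length and GC content 8 members were called, with 176 genes lower and 96 higher in all, and the median was -0.11 over members and -0.05 over all genes. With the trend drawn without ribosomal protein genes, a setting added after the data had been seen, 10 were called, when 2.91% of all genes were called lower. Rpl41 was not called with either form of the correction, and Rpl8 was called with both.

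The stalk of the large subunit, which recruits elongation factors, is built from Rplp0, Rplp1 and Rplp2. Rplp0, the base of the stalk and the member with the most counts, had 8451, 7696 and 7553 CPM in the PA/OA libraries and 9112, 8608 and 8519 CPM in the control libraries. One PA/OA library came close to the controls, and it was not called (-0.15 ± 0.05, adjusted p = 0.0882). Rplp1 had 4105, 3972 and 4083 CPM in the PA/OA libraries and 5062, 4602 and 4284 CPM in the control libraries and fell (-0.20 ± 0.06, adjusted p = 0.0424). Rplp2 had 219, 221 and 219.8 CPM in the PA/OA libraries and 243, 223 and 210.1 CPM in the control libraries, overlapping groups (-0.03 ± 0.08, adjusted p = 0.885). Rpsa, also known as the laminin receptor, was the small subunit gene with the most counts. It measured 7690.4, 7193 and 7424 CPM in the PA/OA libraries and 7946, 8205 and 8442 CPM in the control libraries, without overlap, yet was not called (-0.14 ± 0.04, adjusted p = 0.0733). Rps6, the protein that S6 kinase phosphorylates, had 2959, 2644 and 2721 CPM in the PA/OA libraries and 2918, 3076 and 3035 CPM in the control libraries, with PA/OA 1 among the controls (-0.12 ± 0.05, adjusted p = 0.229).

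Rpl5 and Rpl11, which can leave the ribosome and bind the p53 ligase Mdm2, were not called. Rpl5 had 979, 962 and 1121 CPM in the PA/OA libraries and 1024, 1054 and 1069 CPM in the control libraries, with PA/OA 3 the highest of the 6 (-0.04 ± 0.06, adjusted p = 0.811). Rpl11 had 49.4, 50.9 and 47.9 CPM in the PA/OA libraries and 64.7, 55.7 and 52.3 CPM in the control libraries (-0.22 ± 0.13, adjusted p = 0.377). All PA/OA libraries of Rpl11 were below the controls. Members with a close relative in the family gave no call either. Rpl36al had 671, 601 and 625 CPM in the PA/OA libraries and 695, 721 and 676 CPM in the control libraries (-0.14 ± 0.06, adjusted p = 0.231), and the related Rpl36a 1032, 1004 and 1106 CPM in the PA/OA libraries and 1104, 1147 and 1108 CPM in the control libraries (-0.10 ± 0.06, adjusted p = 0.396). Rpl36al lay lower in each PA/OA library, whereas Rpl36a overlapped by a narrow margin. Rpl22l1, a relative of Rpl22, had 45.5, 62.5 and 62.9 CPM in the PA/OA libraries and 58.1, 57.8 and 55.4 CPM in the control libraries (-0.00 ± 0.14, adjusted p = 0.993). The Rps27 relatives were counted at a far lower level, Rps27l with 5.87, 5.34 and 8.85 CPM in the PA/OA libraries and 7.89, 5.37 and 7.82 CPM in the control libraries (-0.07 ± 0.34, adjusted p = 0.945), and Rps27rt with 7.34, 5.85 and 7.99 CPM in the PA/OA libraries and 6.59, 7.68 and 6.59 CPM in the control libraries (0.02 ± 0.32, adjusted p = 0.983). These 3 overlapped between groups.

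The lowest log2 change of each subunit was in a gene with few counts and was not called. In the small subunit Rps27a, made as a fusion with ubiquitin, measured 3.90, 3.28 and 7.49 CPM in the PA/OA libraries and 8.70, 8.50 and 6.02 CPM in the control libraries (-0.66 ± 0.37, adjusted p = 0.359), and in the large subunit Rpl31 had 9.54, 9.36 and 7.57 CPM in the PA/OA libraries and 16.3, 10.8 and 13.9 CPM in the control libraries (-0.63 ± 0.26, adjusted p = 0.185). PA/OA 3 of Rps27a was inside the controls, and Rpl31 did not overlap. The highest log2 change of each subunit was that of Rpl29 and of Rps9. Rpl29 measured 4.25, 4.05 and 3.38 CPM in the PA/OA libraries and 1.93, 3.54 and 4.83 CPM in the control libraries (0.18 ± 0.46, adjusted p = 0.890), and Rps9 42.6, 48.3 and 48.7 CPM in the PA/OA libraries and 41.2, 45.05 and 51.04 CPM in the control libraries (0.02 ± 0.14, adjusted p = 0.958). Both of these had overlapping groups, as did Rpl21 and Rps27rt, the other 2 members above 0.

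The level at which a member was counted followed how many RefSeq transcripts its gene has. The 47 members with 1 RefSeq transcript had a median of 63836 counts per kilobase, mean of the 6 libraries with PA/OA and control. Before division by length, 43 of them reached a mean of 10000 counts. The 32 with 2 or more had a median of 1855 counts per kilobase, and 3 reached a mean of 10000 counts before that division. Among the low ones were Rps27a, Rpl31, Rpl7a and Rpl29, at 210.3, 282, 300.3 and 131 counts per kilobase. Their products stand in each ribosome as often as those of most of the high ones. Rps12, with 3 RefSeq transcripts of which 1 was listed, was an exception at 161791 counts per kilobase. Reads were counted per transcript with HTSeq, and its setting for reads that several transcripts share is not given in the sources used here, so its part in these levels was not tested.

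**Figure D3:**
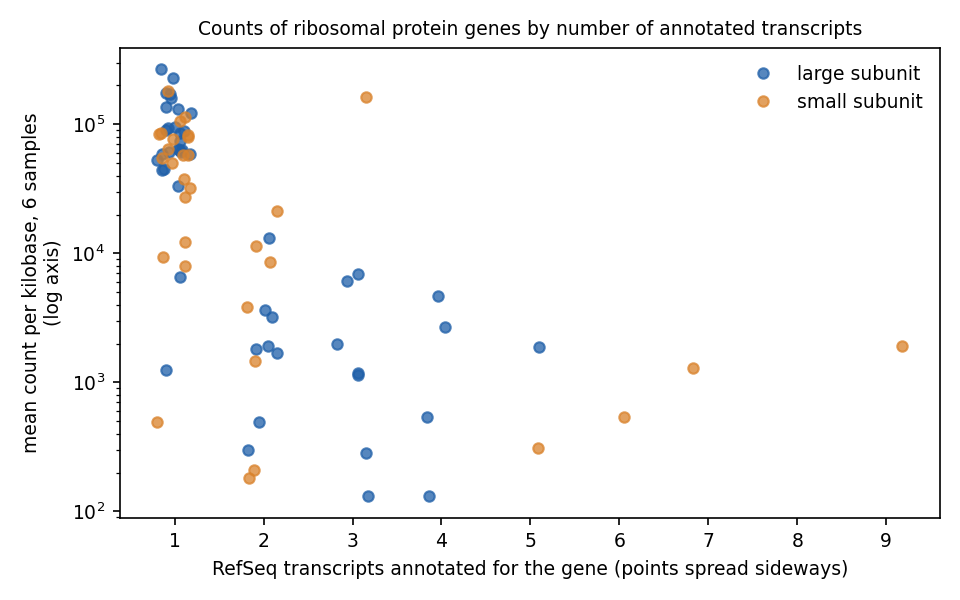
Mean count per kilobase of each member (log axis) by the number of RefSeq transcripts of its gene, for large (blue) and small (orange) subunit genes. The 47 genes with 1 transcript have a median of 63836 and the 32 with 2 or more a median of 1855.

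Of the 19 genes that fell in PA/OA, 16 were among the 47 with 1 transcript and 3, Rpl18, Rpl30 and Rps19, among the 32 with several. The median log2 changes were -0.15 and -0.13, and the median standard errors 0.06 and 0.14. Of the 16 members with 2 or more listed transcripts, 10 had each transcript below 0 and 5 had transcripts on both sides of 0. All 3 listed transcripts of Rps19 were below 0, from -0.72 to -0.46. Many members have processed pseudogenes with near-identical sequence, for example 13 named ones of Rps19, 10 of Rpl30, 24 of Rpl31 and 12 of Rpsa, so their counts are uncertain. Rpl8, Rpl41, Rps3 and Rps20, all called, have none under such a name. Across the 79 members the log2 change followed GC content with a Spearman rho of -0.34 and transcript length with 0.21, a description over genes that share the same libraries.

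The comparison of Ang(1-7) with PA/OA asked whether the peptide altered these mRNAs in cells given fatty acids. Of the 79 members 0 were called in either direction, as were 0.0% of all 9261 genes tested (edgeR), and DESeq2 called 0 members. At an unadjusted p under 0.05, 2 members were lower, Rpl29 and Rpl35a, and 0 higher, against 1.32% and 1.23% of all genes. The groups did not overlap for 7 lower members and 1 higher, against 6.37% and 4.60% of all genes. The median log2 change was -0.10 in the large and 0.03 in the small subunit, and -0.01 over all genes.

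That gap between the subunits came with library Ang(1-7) 2. Without it the medians were -0.04 and -0.05, 53 of 79 members were below 0, 0 were called, and 3 were past an unadjusted p of 0.05, as were 346 of all 9662 genes, which is about the same share. In this library the log2 ratios of the members to the control mean had an SD across 78 genes of 0.877, against 0.115 to 0.272 in the other 8. For 16 members the ratio was beyond 1 on the log2 scale, which 0 or 1 members reached in each other library. The spread was also wide in members with a mean of at least 500 CPM, with an SD of 0.574 against 0.0603 to 0.140. The 322 other genes of that level had an SD of 0.551 in it and of 0.253 to 0.314 in the other 5 libraries with fatty acids.

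Rps26, which lines the channel where mRNA leaves, was the highest member there, with a log2 ratio of 1.65. It measured 1245, 5021 and 1334 CPM in the Ang(1-7) libraries and 1658, 1195 and 1433 CPM in the PA/OA libraries (0.83 ± 0.47, adjusted p = 0.965). The other 5 libraries lay far below Ang(1-7) 2. Rps6 had 2699.8, 4508 and 2584 CPM in the Ang(1-7) libraries and 2974, 2623 and 2727 CPM in the PA/OA libraries, and Rpsa 7191, 10271 and 6849 CPM in the Ang(1-7) libraries and 7729.8, 7137 and 7442 CPM in the PA/OA libraries. In both, Ang(1-7) 2 was far above the other 5 (adjusted p = 0.965 and 0.965). Other members were low there. Rplp2 had 213, 36.4 and 196 CPM in the Ang(1-7) libraries and 221, 219 and 220.3 CPM in the PA/OA libraries (-0.57 ± 0.49, adjusted p = 0.965), and Rpl34 had a log2 ratio of -3.97, the lowest of all. Rplp1 had 4390.0, 2626 and 4039.9 CPM in the Ang(1-7) libraries and 4126, 3941 and 4093 CPM in the PA/OA libraries, with Ang(1-7) 2 below the rest (-0.14 ± 0.17, adjusted p = 0.965). Without Ang(1-7) 2 the log2 changes of Rps26, Rps6, Rpsa, Rplp0 and Rplp1 had the other sign, at -0.14, -0.06, -0.07, -0.08 and 0.07, as did those of Rpl36a and Rpl22l1, at 0.10 and 0.18, and none was called.

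Rpl8, Rps3 and Rps19, which had fallen in PA/OA, overlapped between Ang(1-7) and PA/OA. Rpl8 had 4927, 3178 and 4567 CPM in the Ang(1-7) libraries and 5319.7, 4940.2 and 4888 CPM in the PA/OA libraries (-0.26 ± 0.16, adjusted p = 0.965), Rps3 4004, 3492 and 3528 CPM in the Ang(1-7) libraries and 3889.9, 3896 and 4006 CPM in the PA/OA libraries (-0.10 ± 0.10, adjusted p = 0.965), and Rps19 35.03, 25.3 and 33.2 CPM in the Ang(1-7) libraries and 35.9, 38.8 and 33.02 CPM in the PA/OA libraries (-0.20 ± 0.19, adjusted p = 0.965). For Rpl8 and Rps19, Ang(1-7) 2 was the lowest of the 6. Rpl5 (0.06 ± 0.11, adjusted p = 0.972), Rpl11 (-0.24 ± 0.20, adjusted p = 0.965), Rplp0 (0.11 ± 0.15, adjusted p = 0.967), Rpl36a (-0.03 ± 0.13, adjusted p = 0.984), Rpl36al (0.02 ± 0.10, adjusted p = 0.984), Rpl22l1 (-0.10 ± 0.28, adjusted p = 0.979), Rps27l (-0.15 ± 0.33, adjusted p = 0.975) and Rps27rt (0.12 ± 0.33, adjusted p = 0.979) were not called either. The lowest log2 change was that of Rpl29, with 2.17, 1.28 and 1.38 CPM in the Ang(1-7) libraries and 4.27, 4.02 and 3.38 CPM in the PA/OA libraries (-1.27 ± 0.45, adjusted p = 0.965). Rpl7a was the 1 member higher without overlap, with 11.98, 12.4 and 12.1 CPM in the Ang(1-7) libraries and 8.54, 9.94 and 7.97 CPM in the PA/OA libraries (0.46 ± 0.24, adjusted p = 0.965). Rps21 was the lowest of the small subunit, with 6.34, 2.15 and 5.43 CPM in the Ang(1-7) libraries and 5.28, 6.81 and 7.55 CPM in the PA/OA libraries (-0.50 ± 0.43, adjusted p = 0.965). The median standard error was 0.15 in members of at least 500 CPM and 0.28 in the others, about as large as or larger than the median log2 change of -0.15 in PA/OA against control.

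**Figure D4:**
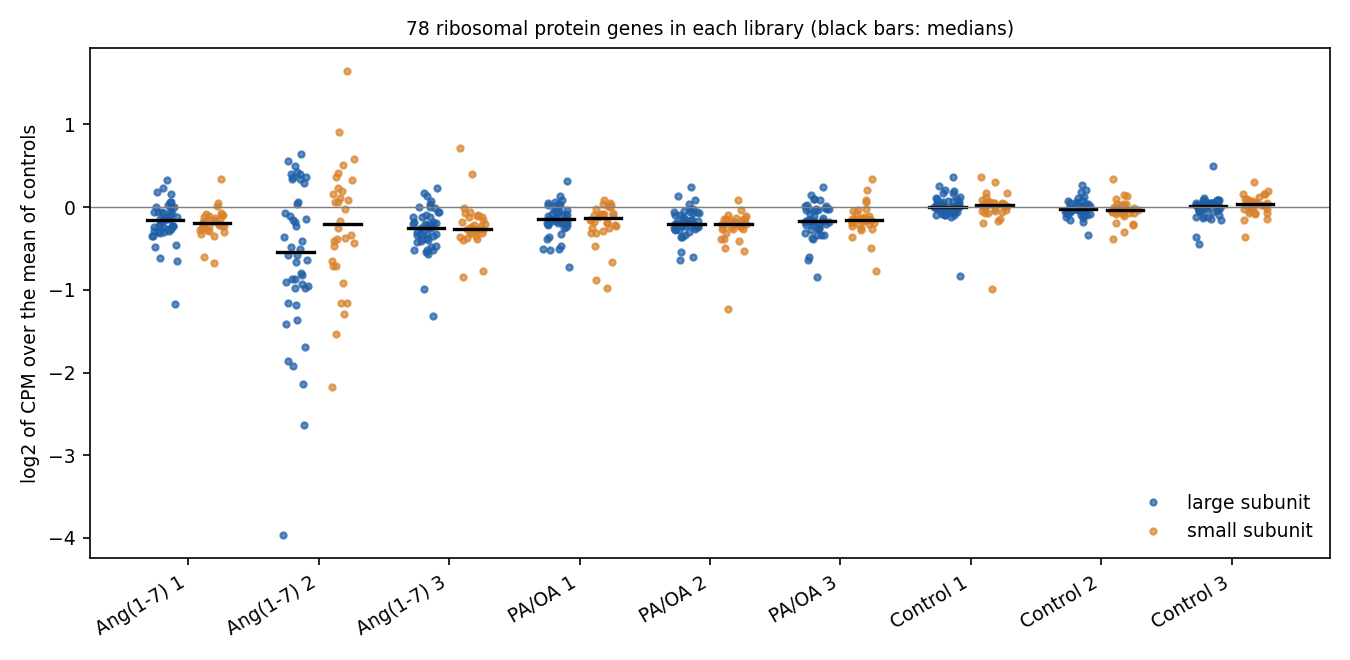
Log2 of the CPM of each of 78 ribosomal protein genes over the mean of the 3 controls, by library, with large subunit genes in blue, small subunit genes in orange and black bars at the medians. The points of Ang(1-7) 2 run from -3.97 to 1.65, and medians of all 6 libraries with fatty acids lie below 0.

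The comparison of Ang(1-7) with control asked how cells given the peptide and the fatty acids differed from untreated cells; it shares its controls with the comparison of PA/OA. Of 78 members 0 were called, as 0.0% of 6134 genes were called lower and 0.245% higher (edgeR). DESeq2 called 4 members lower, against 1.40% of all genes, a single fit of all 9 libraries called 2, against 0.547%, and 15 members were lower and 0 higher at an unadjusted p under 0.05, against 6.34% and 8.58% of all genes. For 32 members the groups did not overlap, all lower, against 13.3% of all genes. The log2 change was below 0 for 63 of 78, with medians of -0.24 in the large and -0.16 in the small subunit and 0.02 over all genes. Without Ang(1-7) 2 the same test called 33 of 78 members lower, 17 large and 16 small, and 0 higher, when 4.96% of all genes were called lower. The medians were then -0.22 and -0.21, and 70 of 78 members were below 0. Without Ang(1-7) 1 or 3 it called 0 members, when 0.114% and 0.0% of all genes were called lower. Ang(1-7) 2 was set apart by its values in these same genes. The p-values without it therefore describe the remaining libraries and are not an independent test. The 7 nervous system markers listed in this table summed to 129, 225 and 201 CPM in Ang(1-7) 1 to 3 and 118 to 143 CPM in control. Most of that sum in Ang(1-7) 1 and the controls was Mbp. The 3 bile duct markers summed to 1126 to 1700 CPM in Ang(1-7) and 1989 to 2134 CPM in control. The 7 hepatocyte markers summed to 877 to 1086 CPM in Ang(1-7) and 589.6 to 677 CPM in control, and the 3 macrophage markers to 705 to 808 CPM in Ang(1-7) and 587 to 627 CPM in control. The part of these lists in the result was not tested.

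Some members were below the controls in each Ang(1-7) library. Rpl18 had 139.9, 129 and 137 CPM in the Ang(1-7) libraries and 205, 185 and 199.8 CPM in the control libraries (-0.54 ± 0.10, adjusted p = 0.0984), and Rpl30 38.8, 25.9 and 41.6 CPM in the Ang(1-7) libraries and 63.1, 61.3 and 55.3 CPM in the control libraries (-0.76 ± 0.20, adjusted p = 0.173). Rpl18 and Rpl30 were named here after their values had been seen. Rps19 had 34.97, 24.6 and 32.9 CPM in the Ang(1-7) libraries and 69.6, 48.97 and 50.4 CPM in the control libraries (-0.87 ± 0.21, adjusted p = 0.139). All 3 genes kept the groups apart in these 6 libraries, and none passed the test. Rpl8 had 4918, 3097 and 4524 CPM in the Ang(1-7) libraries and 6239, 5836 and 6043 CPM in the control libraries (-0.53 ± 0.16, adjusted p = 0.198). Without Ang(1-7) 2 it had the lowest p of all members (-0.36 ± 0.05, adjusted p = 0.000174). Rps3 had 3997, 3403 and 3494 CPM in the Ang(1-7) libraries and 4638, 4263 and 4679 CPM in the control libraries (-0.32 ± 0.10, adjusted p = 0.200), and the groups did not overlap.

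For other members the fitted change depended on Ang(1-7) 2. Rps26 had 1243, 4892 and 1322 CPM in the Ang(1-7) libraries and 1397, 1709 and 1684 CPM in the control libraries, and its log2 change was 0.64 ± 0.48, adjusted p = 0.538. Without Ang(1-7) 2 it turned negative and passed the test (-0.32 ± 0.07, adjusted p = 0.0109). Rps6 had 2695, 4393 and 2559.8 CPM in the Ang(1-7) libraries and 2907, 3065 and 3025 CPM in the control libraries (0.10 ± 0.19, adjusted p = 0.834), and without that library -0.19 ± 0.05, adjusted p = 0.0220. Rplp0 had 7387, 10451 and 7320.1 CPM in the Ang(1-7) libraries and 9078, 8577 and 8491 CPM in the control libraries (-0.06 ± 0.14, adjusted p = 0.879), and Rpsa 7179, 10008 and 6785 CPM in the Ang(1-7) libraries and 7916, 8176 and 8414 CPM in the control libraries (-0.03 ± 0.15, adjusted p = 0.933). Without Ang(1-7) 2 both were lower (-0.25 ± 0.04, adjusted p = 0.00134, and -0.23 ± 0.04, adjusted p = 0.00307). Rplp2 had 212, 35.5 and 194 CPM in the Ang(1-7) libraries and 242, 222 and 209 CPM in the control libraries (-0.61 ± 0.52, adjusted p = 0.584), and Rplp1 4382, 2559 and 4002 CPM in the Ang(1-7) libraries and 5043, 4586 and 4269.6 CPM in the control libraries (-0.34 ± 0.19, adjusted p = 0.420). Neither passed without it.

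Rpl5, with 1087, 977 and 1092 CPM in the Ang(1-7) libraries and 1020.2, 1051 and 1066 CPM in the control libraries, overlapped between groups (0.01 ± 0.09, adjusted p = 0.969), and Rpl11 did not, with 48.7, 30.00 and 45.4 CPM in the Ang(1-7) libraries and 64.4, 55.5 and 52.2 CPM in the control libraries (-0.47 ± 0.21, adjusted p = 0.336). Rpl31 in the large and Rps21 in the small subunit, both counted at low levels, had the lowest fitted value of their subunit (-1.15 ± 0.42, adjusted p = 0.265, and -1.07 ± 0.43, adjusted p = 0.301). Rpl10, a protein added late to the large subunit, had the largest positive value of that subunit (0.16 ± 0.17, adjusted p = 0.666), again with 1 library high, as it measured 1895, 2875 and 1899 CPM in the Ang(1-7) libraries and 1879.6, 2104 and 1989.7 CPM in the control libraries. Without Ang(1-7) 2 Rpl10 was at -0.07 ± 0.06, adjusted p = 0.501, and Rpl22l1 also changed sign (0.16 ± 0.14, adjusted p = 0.528). The relatives Rpl36a (-0.14 ± 0.13, adjusted p = 0.627), Rpl36al (-0.13 ± 0.09, adjusted p = 0.507), Rpl22l1 (-0.12 ± 0.27, adjusted p = 0.868), Rps27l (-0.24 ± 0.33, adjusted p = 0.758) and Rps27rt (0.14 ± 0.33, adjusted p = 0.872) were not called. In Ang(1-7) 1, 66 of 78 members lay below the control mean with a median log2 ratio of -0.18. The same medians were -0.38 in Ang(1-7) 2, -0.26 in Ang(1-7) 3 and -0.15, -0.21 and -0.16 in PA/OA 1 to 3. Over the 45 members with a mean of at least 500 CPM, the median in Ang(1-7) 2 was 0.06, with 22 members below 0. In Ang(1-7) 1 and 3 it was -0.16 and -0.26 over these members, and in PA/OA 1 to 3 it was -0.12, -0.21 and -0.15.

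**Figure D5:**
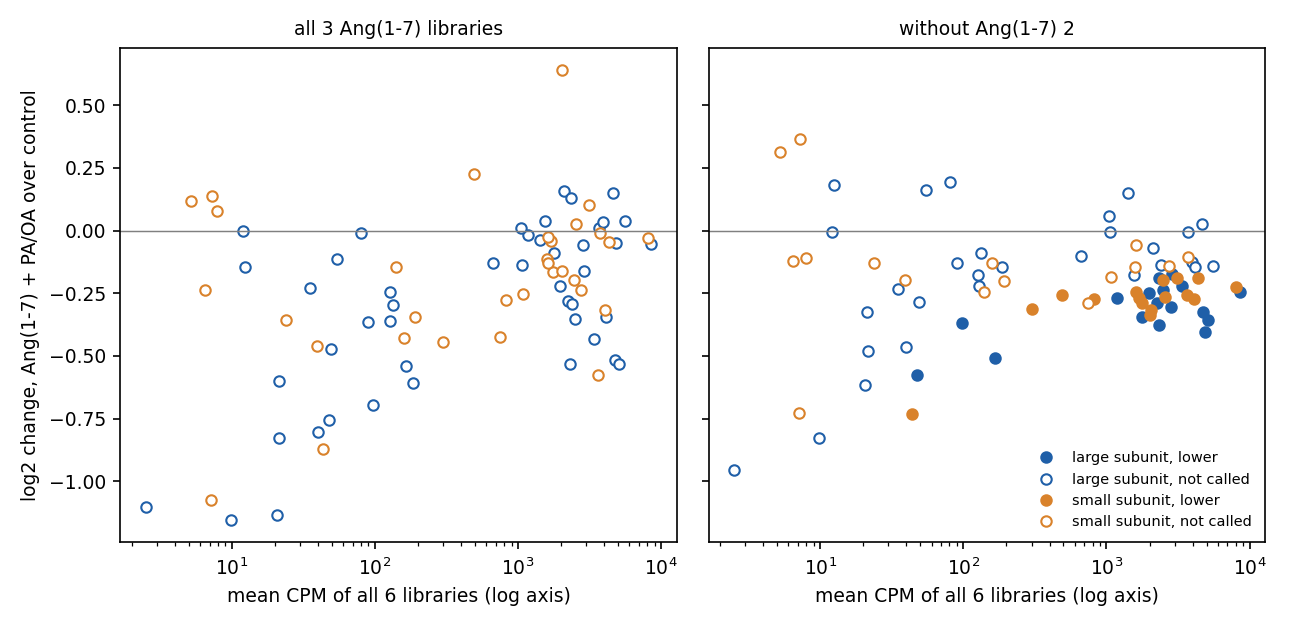
Log2 change of each ribosomal protein gene in Ang(1-7) over control against its mean CPM (log axis), with all 3 Ang(1-7) libraries (left) and without Ang(1-7) 2 (right). Filled points are called lower: 0 of 78 on the left and 33 on the right. Ang(1-7) 2 was set apart by its values in these genes, so the right panel is not an independent test.

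Other genes of the translation machinery were read from 3 lists. Of 24 genes outside the ribosome whose mRNAs start with a TOP tract or are grouped with them, 19 were measured in PA/OA against control, and 3 fell while 0 rose, against 2.24% of all genes called lower and 2.82% higher. Btf3, part of the complex that binds new peptide chains, had 18.04, 17.97 and 15.98 CPM in PA/OA and 33.5, 27.8 and 25.9 CPM in control (log2 change -0.75 ± 0.18, edgeR adjusted p = 0.0207). Rack1, a scaffold on the small subunit, had 4676, 4620 and 4620 CPM in PA/OA and 5454, 5048 and 5135 CPM in control (-0.17 ± 0.05, adjusted p = 0.0423). The filament gene Vim had 7161, 6388 and 6636 CPM in PA/OA and 7396, 7788 and 8428 CPM in control (-0.23 ± 0.05, adjusted p = 0.0166). The groups of these 3 did not overlap. The elongation factor Eef1a1 was at -0.05 ± 0.03 (adjusted p = 0.480). The median of the list was -0.11.

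Of 40 genes for ribosome assembly 30 were measured and 1 fell, a share close to the 2.24% of all genes called lower. It was Nhp2, of the particles that modify ribosomal RNA, with 518, 434 and 443 CPM in PA/OA and 576, 559 and 548 CPM in control (log2 change -0.27 ± 0.07, edgeR adjusted p = 0.0367). The groups did not overlap. The median of that list was -0.12, and 25 of 30 were below 0. Of 19 regulators of growth 12 were measured and 0 were called, with a median of 0.17, among them Mtor (0.20 ± 0.13, adjusted p = 0.435) and Eif4ebp1, an mTORC1 target (-0.23 ± 0.09, adjusted p = 0.175). In Ang(1-7) against PA/OA the 3 lists had 20, 35 and 17 measured genes, 0 calls and medians of 0.02, -0.01 and 0.03. In Ang(1-7) against control they had 18, 31 and 12 measured genes, 0 calls and medians of -0.10, -0.19 and 0.05.

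The authors' deposited tables give an unadjusted p-value for each transcript. In the authors' deposited table of PA/OA against control 52 of 96 member transcripts had a p under 0.05, all lower, against 23.3% of all transcripts in either direction. In the authors' deposited table of Ang(1-7) against PA/OA these were 7 of 104, 6 of them lower, against 6.71% of all. The authors' deposited table of Ang(1-7) against control had 38 of 94, all lower, against 21.0% of all.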

How the data were processed

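Total RNA of 9 AML12 samples, 3 per group, came from a Qiazol and miRNeasy extraction, per the labels' protocols. The authors deposited 3 tables, 1 per pair of groups, with whole-number counts per RefSeq transcript, which per the submitters' processing notes were made with bcl2fastq, HISAT2 2.2.5 and HTSeq 0.11.2. The notes name a human build although the transcripts are mouse ones, so coordinates here are only those of RefSeq sequence on GRCm38.p6. For each transcript the authors also deposited their log2 fold change with a p-value that is not adjusted, and these were only counted here. Counts of a sample were identical wherever it was listed.

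Counts were summed per gene symbol and tested within each table with the quasi-likelihood F test of edgeR 4.0.16 (R 4.3.3), with group as the only term, low counts removed by filterByExpr and scaling by trimmed mean of M values, over 6213, 9261 and 6134 genes, with Benjamini-Hochberg adjustment and a threshold of 0.05. The biological coefficient of variation was 22.4%, 44.3% and 30.7%. Errors of log2 changes are standard errors derived from the F statistic. The fit was also run on simulated data with less spread than these data have, so that run cannot show how well small changes are found here. Length and GC content came from GENCODE transcripts and were matched for 97.0% to 98.1% of genes and for all members. Alternatives were a fit with the replicate number as a block, DESeq2 1.42.0 and its size factors, library totals, scaling without members, a mean of at least 100 counts, no filter, curated transcripts, 1 row per transcript, all 9 samples, a length and GC correction and each library left out.

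Members, lists and tests were chosen with earlier results of these data known. Named in each comparison are up to 12 called members (otherwise the 6 of lowest p per subunit), the largest change per subunit and direction, Rpl8, Rps3 and Rps19, the stalk genes and Rpsa, Rps6, Rpl5, Rpl11, and members ending in l, l1 or rt with their parent gene where listed. Other members were named after their values had been seen. Some items are not reported here by name.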

Additional observations from a re-analysis of the deposited data

How the results depend on the processing

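In PA/OA against control the count of 19 lower members (edgeR) became 0 with all 9 samples in 1 fit, 8 with the length and GC correction, 10 with its trend drawn without ribosomal protein genes (chosen after seeing the data) and 12 with library totals, and leaving out 1 library gave 2 to 28. It was 19 with the replicate block, 21 with DESeq2 and 17 to 20 under the other settings. The share of all genes called lower was 0.0332% with all 9 samples, 2.83% and 2.91% with the corrections and 1.45% with library totals. It was 0.499% to 3.17% with 1 library left out, 4.17% with DESeq2 and 1.96% to 3.02% under the other settings. Rps29 was not called with DESeq2, nor Rps19 with curated transcripts only. The median log2 change of -0.15 was -0.11 with the length and GC correction and -0.11 with library totals, and -0.19 to -0.13 with 1 library left out. In Ang(1-7) against PA/OA 0 members were called under every setting run, and the median of -0.07 became 0.017 with the length and GC correction and 0.010 with its trend without ribosomal protein genes, and -0.10 to -0.03 with 1 library left out. In Ang(1-7) against control the count of 0 became 4 with DESeq2, 2 with all 9 samples and 0 to 33 with 1 library left out, where 33 was without Ang(1-7) 2, and the median of -0.21 became -0.12 with the length and GC correction and -0.26 to -0.18 with 1 library left out. The share of all genes called lower there was 1.40% with DESeq2, 0.547% with all 9 samples and 4.96% without Ang(1-7) 2. Rps26 and Rps6 changed sign there without Ang(1-7) 2, with a range over libraries left out of -0.32 to 0.95 and -0.19 to 0.24. The cause was not tested. With 1 library left out the difference in share of counts was -1.22 to -0.993 percentage points for PA/OA against control, -1.24 to -0.725 for Ang(1-7) against control and -0.163 to 0.350 for Ang(1-7) against PA/OA, and each moved from its value with all libraries by less than the spread between replicates. Deviations of same-numbered samples had r of -0.07 to 0.05, and those of differently numbered samples -0.06 to 0.10. In PA/OA against control these were 0.014 to 0.021 and -0.013 to -0.0013. With 3 samples per group such values cannot decide whether the numbers pair the samples. The replicate block gave 19, 0 and 0 calls in the 3 comparisons. Members with few counts, such as Rps27a and Rpl29, had standard errors too wide to show changes of the usual size.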
